A study of Homo sapiens with 12 samples.

Results

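The replication-dependent histone genes code for the bulk of the histones that package newly made DNA. They were taken as every probe set whose platform gene symbol is H1-1 to H1-6 or begins with H2AC, H2BC, H3C or H4C and a number. That gave 61 probe sets for 61 genes among 21448 probe sets: 6 for the linker histone H1, and 14 for H2A, 17 for H2B, 9 for H3 and 15 for H4, the core histones. RNA came from H1975 and PC-9, established human lung adenocarcinoma lines that carry mutations of the epidermal growth factor receptor, and was read on a whole-transcript array of 1 colour. In each line, 3 arrays held cells still alive on day 8 of culture with 0.5 µM osimertinib, an inhibitor of that receptor, here called tolerant cells. The other 3 held such cells that were alive after a further 48 h with 100 µM the compound SK-216, named here by its code only. All 12 arrays therefore hold survivors of osimertinib, and no untreated cells are among them. For the SK-216 samples 1 label speaks of naive starting cells and the descriptions and protocol of tolerant ones. Whether osimertinib stayed in the medium with SK-216 is not stated, and tolerant cells cultured 48 h longer without SK-216 were not analysed here, so the compound and the added time cannot be told apart.

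Core histones form the octamer around which DNA is wound, and H1 binds the linker DNA between octamers. Most replication-dependent histone mRNAs are made in S phase, end in a stem-loop instead of a poly(A) tail, and are bound by the stem-loop binding protein SLBP. Their transcription is driven by NPAT, a substrate of cyclin E-CDK2, and their mRNAs are degraded when DNA synthesis stops. The genes lie in clusters, the largest on chromosome 6 and smaller ones on chromosome 1, and many H2A and H2B genes stand head to head around a shared upstream region.

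The upstream regions of 5 genes named in the results are shown, and their part in the results was not tested. H2BC14 and H3C7 had the largest differences between the lines. H2BC13, whose upstream sequence is close to that of H2BC14, differed less. H2BC12 showed no called difference, and H4C15 was the gene called after SK-216 in PC-9. Each is the 250 bases before the RefSeq start site (GRCh38.p14), written 5′ to 3′ on the strand of the gene. Capitals mark the CCAAT box, the TATAAA box and the octamer ATTTGCAT on either strand (a match on the other strand shows as the reverse complement), and neighbouring matches of TATAAA on both strands can overlap.
H2BC14, chr6:27814772-27815021 (+): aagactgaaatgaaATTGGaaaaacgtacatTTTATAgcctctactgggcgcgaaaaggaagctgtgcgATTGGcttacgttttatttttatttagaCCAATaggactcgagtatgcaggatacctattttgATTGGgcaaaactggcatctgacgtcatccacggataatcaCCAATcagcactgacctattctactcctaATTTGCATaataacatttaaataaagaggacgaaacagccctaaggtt
H2BC13, chr6:27807930-27808179 (-): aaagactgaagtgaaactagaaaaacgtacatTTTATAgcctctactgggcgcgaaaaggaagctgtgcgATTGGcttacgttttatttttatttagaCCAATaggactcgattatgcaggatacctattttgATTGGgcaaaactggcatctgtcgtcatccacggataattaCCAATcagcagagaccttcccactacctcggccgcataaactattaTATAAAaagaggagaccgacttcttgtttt
H2BC12, chr6:27146859-27147108 (-): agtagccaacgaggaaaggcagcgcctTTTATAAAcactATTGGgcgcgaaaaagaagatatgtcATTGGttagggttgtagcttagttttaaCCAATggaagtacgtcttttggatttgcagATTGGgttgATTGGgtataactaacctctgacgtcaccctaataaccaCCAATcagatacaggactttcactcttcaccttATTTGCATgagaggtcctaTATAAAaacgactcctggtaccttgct
H3C7, chr6:26250636-26250885 (-): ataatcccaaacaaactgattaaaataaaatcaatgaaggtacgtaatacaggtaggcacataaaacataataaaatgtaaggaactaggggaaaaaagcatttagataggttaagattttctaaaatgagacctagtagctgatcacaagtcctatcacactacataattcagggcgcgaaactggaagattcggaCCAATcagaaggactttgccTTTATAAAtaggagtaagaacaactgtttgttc
H4C15, chr1:149861160-149861409 (-): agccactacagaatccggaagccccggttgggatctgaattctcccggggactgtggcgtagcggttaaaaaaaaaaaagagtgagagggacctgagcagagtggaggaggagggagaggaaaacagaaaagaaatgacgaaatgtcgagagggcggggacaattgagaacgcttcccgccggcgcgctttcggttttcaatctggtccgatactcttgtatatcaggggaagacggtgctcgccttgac

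The table of promoter windows, each of 300 bases around a start site, held 57 of the 61 genes, and H2AC12, H3C11, H4C1 and H4C3 were not matched. CCAAT was found in 47 of 57 windows (82.5%), against 34.6% of all 35116 windows. All matched H1, H2A, H2B and H3 windows held it, and 3 of 13 H4 windows did. TATAAA was found in 39 of 57 (68.4%), against 11.5% of all windows. The octamer ATTTGCAT, known as a binding motif of POU-domain factors in H2B promoters, was found in 22 of 57 (38.6%), against 1.77% of all windows. It lay in 14 of 17 H2B and 8 of 13 H2A windows and in 0 windows of H1, H3 and H4. A match is a string of letters and shows no binding.

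Values are log2 signals as deposited, so a difference of 1 is a doubling, and signals of different probe sets are not read as relative mRNA levels. The probe set with the highest mean signal of each family is named only as an example chosen by a fixed rule. The array medians lay between 6.56 and 6.62. The 349 olfactory receptor probe sets, taken after the data were seen as genes these cells are not expected to use, lay around a median of 3.61, with a 95th percentile of 5.14. Of the histone probe sets, 54 lay above 5.14 in the mean of every group and 3 in none, H4C7 and the testis genes H1-6 and H2AC1. H2BC17, H2BC26, H4C6 and the testis gene H2BC1 did so in some groups. The median SD within groups was 0.198 for histone probe sets and 0.219 for all. Arrays of a group correlated at r of 0.993 to 0.995, arrays of different lines at 0.927 to 0.932. Of 11 lung epithelial markers, 7 in tolerant H1975 and 8 in tolerant PC-9 cells lay above 5.14. The keratins KRT7, KRT8, KRT18 and KRT19 were above it in both, while NKX2-1, NAPSA and SFTPC, defining markers of lung epithelium, were below it in both. The summed epithelial signal ran from 16.90 to 16.98 in tolerant H1975 and from 18.20 to 18.33 in tolerant PC-9 arrays (log2 of the sum). Among leukocyte, endothelial and fibroblast markers 3 of 5, 0 of 5 and 3 of 5 lay above 5.14 in H1975 and 3, 2 and 3 in PC-9, and PTPRC, PECAM1 and LUM were below it in both lines. Arrays give no read depth, and 3 per group limits the precision. Nothing in the labels says that the 3 came from separate cultures, so p-values cover only the scatter among these arrays, and it may be technical.

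Tolerant PC-9 cells had lower histone signals than tolerant H1975 cells. Of the 61 genes, 43 were lower (70.5%), 0 were higher and 18 were not called, at an adjusted p below 0.05 in a limma fit over all probe sets. Of all probe sets 44.0% were called between these lines, 22.7% lower and 21.3% higher, so the lines differ widely. The median histone difference, PC-9 minus H1975, was -0.94 on the log2 scale, against 0.02 over all probe sets. It ran from -4.83 to 0.24, with 54 of 61 values below 0, and 29 called genes were lower by at least 1 and 7 by at least 2. For 46 of 61 genes all 3 PC-9 arrays lay below all 3 H1975 arrays (25.3% of all probe sets did so), and for 0 genes above them (25.0%). Lower signal in bulk RNA can come from fewer cells in S phase or from less histone mRNA per cell, and these cannot be told apart here.

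**Figure D1:**
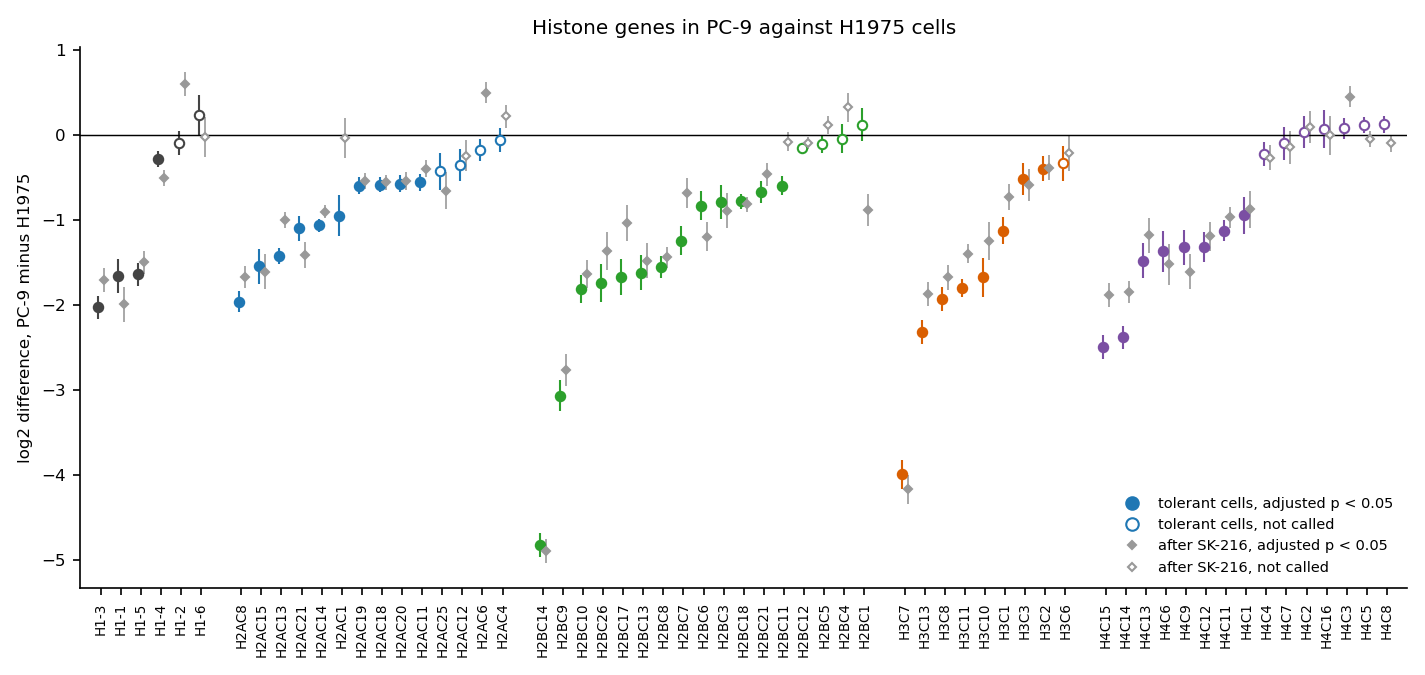
Log2 difference of each histone gene, PC-9 minus H1975 (y axis, ± standard error of the fit), ordered by family and size (x axis). Circles are tolerant cells and grey diamonds are cells after SK-216; filled symbols had an adjusted p below 0.05. In tolerant cells 43 of 61 circles are filled and all of these lie below 0, with H2BC14 at -4.83 and H3C7 at -4.0 farthest down.

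Among the linker histones, 4 of 6 genes were lower (median -0.96). H1-3 read 11.26, 11.43 and 10.99 in tolerant H1975 arrays and 9.25, 9.07 and 9.28 in tolerant PC-9 arrays. The groups did not overlap, and the difference was -2.03 ± 0.14 (standard error of the fit, n = 3 per group, adjusted p = 5.262e-12). H1-5 (adjusted p = 1.718e-10) and H1-1 (adjusted p = 2.051e-07) were lower too, at -1.64 ± 0.13 and -1.66 ± 0.20. H1-4, the H1 probe set with the highest mean signal, read 15.03, 14.93 and 14.66 against 14.60, 14.57 and 14.62, a difference of -0.28 ± 0.09 (adjusted p = 0.01871). That call was small, and it was lost in 4 of 21 alternative fits (highest adjusted p = 0.1364). H1-2, a somatic H1, read 10.92, 10.86 and 10.68 in H1975 and 10.45, 10.83 and 10.90 in PC-9. Its groups overlapped (-0.09 ± 0.15, adjusted p = 0.6702). H1-6, a testis H1, stayed below 5.14 in all groups, and its value of 0.24 ± 0.23 was the highest of the 61.

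Of the H2A genes 10 of 14 were lower (median -0.59), and 14 of 14 values lay below 0. H2AC8 read 13.71 to 14.14 in H1975 and 11.82, 12.13 and 12.02 in PC-9, the largest H2A difference at -1.96 ± 0.13 (adjusted p = 2.156e-12). H2AC13 differed by -1.43 ± 0.09 (adjusted p = 2.273e-12). H2AC14, the H2A probe set with the highest mean signal, read 16.47, 16.39 and 16.28 against 15.29, 15.39 and 15.28, a difference of -1.06 ± 0.08. All 3 of these had separate groups. H2AC11, H2AC18, H2AC19 and H2AC20 moved nearly together, between -0.56 and -0.59. Over the 12 arrays the centred profiles of H2AC18 and H2AC20 were the closest of 383 pairs within families, with a root mean square difference of 0.0857. H2AC18 and H2AC19, with identical 250 bases upstream, differed by 0.116 in the same measure. Core histone genes of a family code for identical or nearly identical proteins, so such probe sets may share signal and are not independent measurements. H2AC6 read 11.65, 11.61 and 11.51 against 11.31, 11.49 and 11.45. Its arrays did not overlap by a small margin, and the difference of -0.17 ± 0.13 was not called (adjusted p = 0.3016).

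The H2B genes held the widest spread: 13 of 17 were lower (median -0.83). H2BC14 read 14.49, 14.69 and 14.57 in tolerant H1975 arrays and 10.10, 9.42 and 9.73 in tolerant PC-9 arrays. The lowest H1975 array was more than 4 log2 units above the highest PC-9 array. The difference was -4.83 ± 0.14, 28.5-fold (adjusted p = 5.81e-19). H2BC13, whose upstream sequence shown above is 83.1% identical to that of H2BC14, read 7.52, 8.19 and 8.20 against 6.51, 6.37 and 6.17. It was lower by 1.62 ± 0.21 on the log2 scale (adjusted p = 3.815e-07), also without overlap. The upstream sequence of H2BC14 holds the octamer and that of H2BC13 does not. H2BC9 read 11.94, 12.29 and 11.97 against 9.04, 9.10 and 8.85, a difference of -3.07 ± 0.18 (adjusted p = 7.274e-13). Its 3 PC-9 arrays lay below every H1975 array by more than 2 units. H2BC12, the H2B probe set with the highest mean signal, read 16.11, 16.15 and 15.98 in H1975 and 15.89, 15.90 and 15.98 in PC-9. The highest PC-9 array equalled the lowest H1975 array, and the difference of -0.16 ± 0.07 was not called (adjusted p = 0.06457, 95% interval -0.30 to -0.02). The upstream sequences of H2BC12 and H2BC14 both hold all 3 motifs when both strands are counted. The 1 TATAAA match of H2BC14 lies on the other strand, at the end far from its start. H2BC12 and H2BC13 also hold TATAAA on their own strand near the start. The part of these motifs in the differences was not tested.

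H3 genes were the family with the largest share called, 8 of 9 lower (median -1.68). H3C7 read 11.06, 10.80 and 10.79 in H1975 and 6.82, 6.83 and 7.01 in PC-9, a difference of -4.0 ± 0.17, 16.0-fold (adjusted p = 6.935e-16). No array of one line came near those of the other. H3C13, on chromosome 1, read 11.81, 11.90 and 12.11 against 9.77, 9.58 and 9.51 (-2.32 ± 0.14, adjusted p = 1.439e-12). H3C11, the H3 probe set with the highest mean signal, read 13.73, 13.54 and 13.50 against 11.79, 11.95 and 11.62 (-1.80 ± 0.11, adjusted p = 7.516e-13). Both had separate groups, as did H3C8 at -1.93 ± 0.15 (adjusted p = 5.377e-11). H3C2 at -0.39 ± 0.15 and H3C3 at -0.52 ± 0.18 passed in the reported fit but were lost in 6 and 4 of 21 alternative fits (highest adjusted p = 0.1511 and 0.09527). H3C6 at -0.33 ± 0.21 was not called.

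H4 genes split into lower genes and genes with little difference: 8 of 15 were lower (median -0.94). H4C15 read 12.18, 12.33 and 11.89 in H1975 and 9.65, 9.75 and 9.51 in PC-9 (-2.50 ± 0.14, adjusted p = 1.84e-13). H4C14 read 12.35, 12.28 and 12.18 against 9.73, 9.97 and 9.96 (-2.38 ± 0.13, adjusted p = 1.216e-13). Their upstream 250 bases are 100% identical. As genes of 1 family they may share signal in their probe sets, which the upstream identity does not show and which was not measured. H4C5, the H4 probe set with the highest mean signal, read 15.72, 15.75 and 15.38 in H1975 and 15.86, 15.64 and 15.71 in PC-9. The groups overlapped, and the 95% interval of the difference ran from -0.07 to 0.31. With quantile normalization H4C5 was called higher in PC-9. H4C8 read 12.12, 12.17 and 12.04 against 12.30, 12.13 and 12.28, with an interval of -0.07 to 0.33. The profiles of H4C5 and H4C8 were the second closest of the 383 pairs (0.0879). The remaining uncalled H4 genes were H4C2 (0.04 ± 0.19), H4C3 (0.08 ± 0.13), H4C4 (-0.22 ± 0.14), H4C7 (-0.10 ± 0.19) and H4C16 (0.07 ± 0.23).

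**Figure D2:**
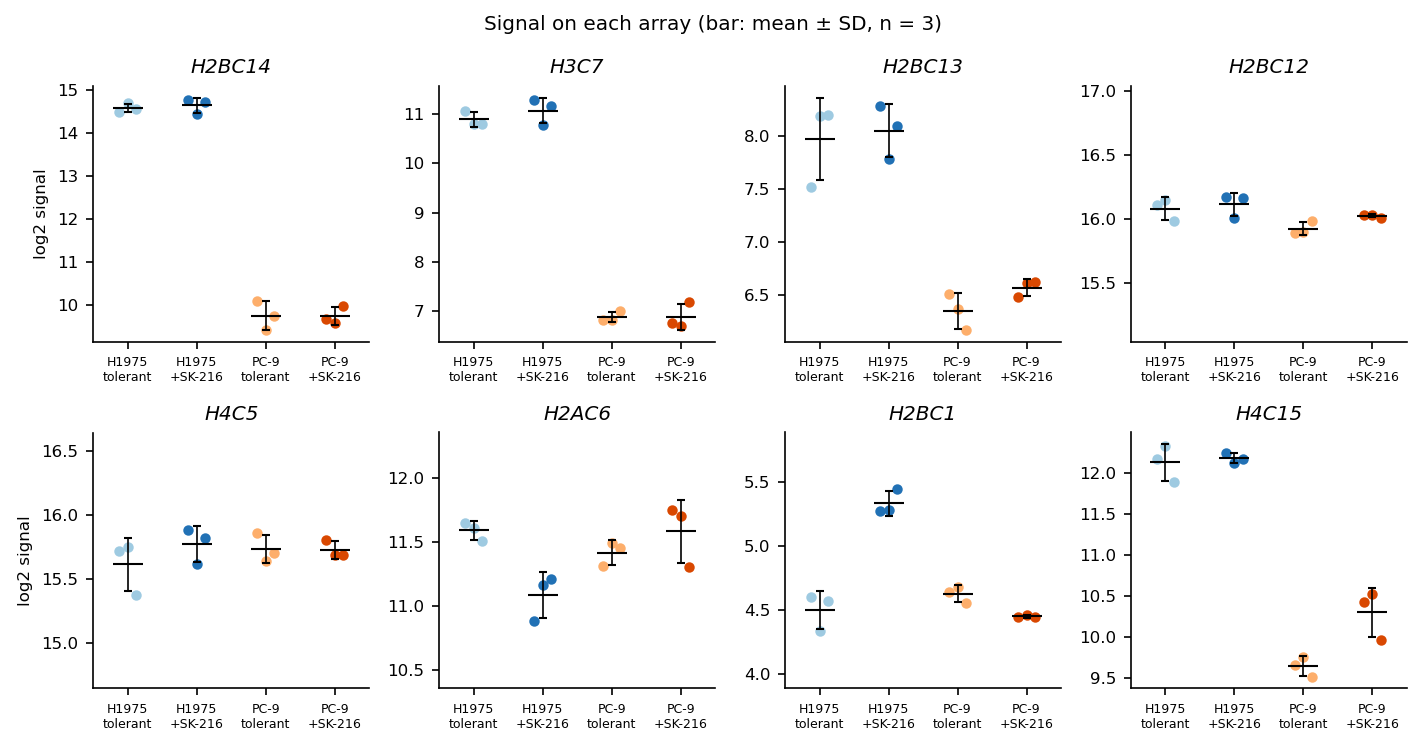
Log2 signal of 8 histone genes (y axis, scaled per gene) on each array, by line and treatment (x axis); points are arrays and bars the mean ± SD (n = 3). H2BC14, H3C7, H2BC13 and H4C15 separate by line, H2BC12 and H4C5 overlap between tolerant groups, and H2AC6 and H2BC1 differ between the H1975 groups.

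The same contrast in the cells given SK-216 uses the other 6 arrays, of the same lines. There 43 genes were lower in PC-9 and 3 higher, where 43.9% of all probe sets were called (22.2% lower and 21.6% higher). In 41 genes the PC-9 arrays lay below all H1975 arrays and in 3 above (26.2% and 24.4% of all probe sets), and the histone median was -0.87. Of the genes, 41 were lower in both contrasts, and 51 of 61 differences had the same sign in both. H2BC14 read 14.77, 14.44 and 14.73 in H1975 and 9.67, 9.58 and 9.98 in PC-9 after SK-216, and H3C7 read 11.27, 10.77 and 11.15 against 6.76, 6.71 and 7.20. The differences of -4.90 and -4.17 were close to those in tolerant cells. The 3 genes higher in PC-9 after SK-216 were H1-2 (0.60), H2AC6 (0.50) and H4C3 (0.45), none of them called in tolerant cells. H2AC1 and H2BC11 were lower in tolerant cells only by call, and H2AC25 and H2BC1 after SK-216 only by call. The test of the difference between both contrasts, which is the interaction reported with SK-216, called none of the 61 genes (13 at an unadjusted p below 0.05). Of all probe sets 1.42% were called by it and 12.7% had such a p.

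The size of the difference varied between stretches of the clusters and within them, and the part of position in it was not tested. Genes were put in RefSeq order, and a run was ended where more than 3 other protein-coding genes intervened, which gave 7 runs. In the run from H2BC13 to H2BC17 on chromosome 6, 12 of 12 genes were lower, between -4.83 and -1.06 (median -1.58), and all 5 families are in it. Of the 10 measured genes beside it, 1 was lower and 5 were higher (median 0.52). PRSS16, a serine protease, at 2.21 and ZNF165, a zinc finger gene, at 1.80 were among those higher. POM121L2 and the olfactory receptor gene OR2B2, both not called, had means below 5.14 in both groups, and ZNF165 had one in H1975. In the run from H1-1 to H4C8, also on chromosome 6, 17 of 30 genes were lower (median -0.46), between -4.0 and 0.24. Within it the consecutive stretch from H1-2 to H2BC5 held H1-2, H4C3, H1-6, H2BC4, H2AC6, H1-4 and H2BC5, and only H1-4 was called. Toward its end H3C7, H2BC9, H3C8 and H2BC10 stood next to each other at -4.0, -3.07, -1.93 and -1.81, and the last gene, H4C8, was at 0.13. Of 11 measured genes beside or inside this run, 1 was lower and 4 higher (median 0.18). SLC17A1, SLC17A2, SLC17A3 and SLC17A4, among those not called, had means below 5.14 in both groups. In the run from H2BC11 to H2AC12 3 of 5 were lower, and of 10 neighbours 2 were lower and 3 higher. BTN1A1, POM121L2 and OR2B2, among those not called, had means below 5.14 in both groups.

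In the chromosome 1 run from H2BC18 to H2AC21, 9 of 9 genes were lower (median -0.78), with H3C13, H4C14 and H4C15 below -2 and the other 6 between -1.1 and -0.57. Of 11 neighbours 4 were lower and 0 higher (median -0.29): NBPF9 (-1.59), NBPF11 (-1.21), NBPF14 (-0.83) and BOLA1 (-0.85). The other 7 neighbours were not called, with FCGR1A, an Fc receptor gene inside the run, at 0.20. FCGR1A and PPIAL4G had means below 5.14 in both groups. Of all probe sets 22.7% were lower in this contrast. The part of the region in the histone differences was not tested. H2AC25 and H2BC26, a separate pair on chromosome 1, were at -0.43 ± 0.22 (not called) and -1.74 ± 0.22 (adjusted p = 3.659e-07), and 5 of 10 neighbours were lower and 1 higher. H2AC1 and H2BC1 on chromosome 6 were at -0.95 ± 0.24 (adjusted p = 0.001753) and 0.12 ± 0.19 and lie near the olfactory receptor level. H4C16, alone on chromosome 12, read 6.24, 6.63 and 6.37 in H1975 and 6.95, 6.27 and 6.24 in PC-9, with overlapping groups.

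**Figure D3:**
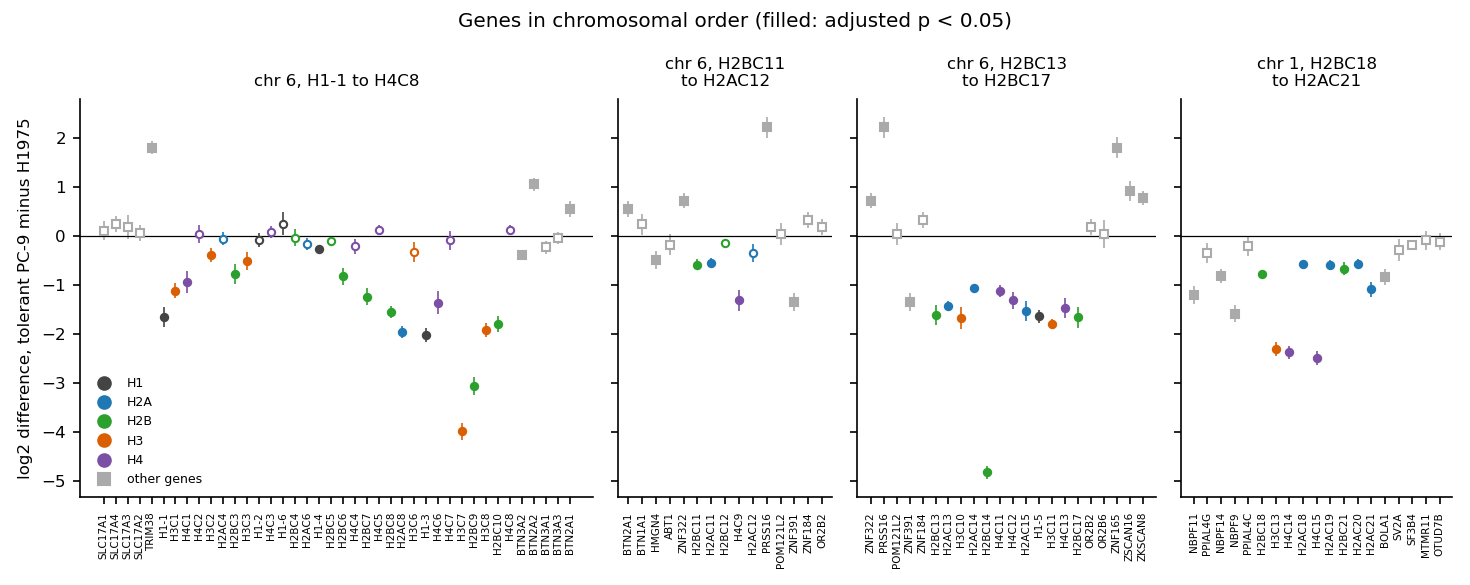
Log2 difference, tolerant PC-9 minus tolerant H1975 (y axis, ± standard error), of the genes of 4 runs in chromosomal order (x axis), with measured neighbouring genes as grey squares; filled symbols had an adjusted p below 0.05. All 12 genes from H2BC13 to H2BC17 and all 9 from H2BC18 to H2AC21 are filled and below 0, while the run from H1-1 to H4C8 holds 17 filled and 13 open circles.

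Genes that share an upstream region did not always differ by the same amount. There were 9 pairs with opposite strands and start sites at most 1000 bases apart, at 215 to 979 bases. In 6 pairs both genes were lower, in 2 pairs 1 was, and in 1 pair neither. Of all 61 histone genes 70.5% were lower, and of all probe sets 22.7%. The 2 pairs with 1 lower gene were H2AC1 with H2BC1 and H2AC25 with H2BC26. H2AC1 and H2BC1 had means below 5.14 in both tolerant groups, and H2BC26 had one in tolerant PC-9. H2BC11 and H2AC11, with start sites 248 bases apart, differed by -0.59 and -0.56, and H2BC13 and H2AC13 (244 bases) by -1.62 and -1.43. H3C7 and H2BC9, 979 bases apart, were the pair with the largest differences in both genes, -4.0 and -3.07. H2BC4 and H2AC6 (246 bases) were the pair with no call, at -0.04 and -0.17. H2AC14 and H2BC14 (245 bases) were the pair with the widest gap: -1.06 against -4.83. Across all matched windows, CCAAT was found in 37 of 41 genes lower in PC-9 and 10 of 16 not called, TATAAA in 28 of 41 and 11 of 16, and the octamer in 17 of 41 and 5 of 16. These shares also follow the families, since H4 windows seldom held CCAAT and none held the octamer. Overlapping windows of paired genes can count 1 match for both.

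Some histone genes of the clusters are known to make polyadenylated mRNA as well, which persists outside S phase. H1-2, H2AC6, H2BC4, H2BC5, H2BC12 and H2BC21 were taken as such from general knowledge after the values were seen. The choice may therefore shape the counts, and the genes are described with no test. In tolerant PC-9 cells 22.7% of all probe sets were lower. Of the other 55 histone genes 42 were (median -1.1), and of these 6, 1 was (median -0.13). The one called was H2BC21, which read 11.75, 11.88 and 11.83 in H1975 and 11.37, 11.02 and 11.06 in PC-9 (-0.67 ± 0.13, adjusted p = 0.0001853). H2BC5 read 12.42, 12.30 and 12.34 against 12.05, 12.37 and 12.31, with overlapping groups (-0.11 ± 0.10, adjusted p = 0.4448). H2BC4 was at -0.04 ± 0.17. By a related count, 41 of 55 genes with 1 RefSeq transcript were lower (median -1.06) and 2 of 6 with several (median -0.24). H2BC4, H2BC5 and H2BC12 are in both groups of 6, so the counts overlap. Of the genes not in both, H2BC18 (-0.78) and H4C15 (-2.50) were called lower and H3C6 (-0.33) was not called. The kit named in the labels is made for whole transcripts, so both kinds of mRNA can give signal, and their shares were not measured.

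Genes that work with the replication-dependent histones were read from 5 lists. Of all probe sets, 22.7% were lower and 21.3% higher in tolerant PC-9 against tolerant H1975 cells. DNA replication genes were the list closest to the histones in the share lower: 32 of 48 were lower in tolerant PC-9 cells (66.7%) and 3 higher, with a median of -0.56. RRM1, the large subunit of ribonucleotide reductase, was at -1.86 ± 0.09 and PCNA, the sliding clamp, at -1.75 ± 0.11. PCNA read 13.77, 13.69 and 13.88 against 11.89, 12.19 and 12.01. TK1, thymidine kinase, at 0.66, LIG1, DNA ligase 1, at 0.76 and RFC1, the large clamp loader subunit, at 0.29 were the ones higher. MKI67, a proliferation marker, was at -1.31 ± 0.15, while the cyclin gene CCNA2, active in S phase, was at 0.65 ± 0.09. The part of these genes' differences in those of the histones was not tested.

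The factors that transcribe and process histone mRNA did not share 1 direction: of 35 measured, 11 were lower (31.4%) and 5 higher (median -0.17). Beside these stand 22.7% lower and 21.3% higher over all probe sets. SLBP read 9.26, 9.01 and 9.23 in tolerant H1975 and 8.96, 9.57 and 9.52 in tolerant PC-9 cells, with overlapping groups (0.18 ± 0.19, adjusted p = 0.4899). NPAT read 8.57, 8.97 and 8.94 against 8.75, 8.91 and 8.71, also overlapping (-0.04 ± 0.18, adjusted p = 0.9026). Lower were CPSF2, a subunit of the nuclease complex that cuts the mRNA, at -2.43 ± 0.13, LSM11, of the U7 particle that recognises it, at -2.15 ± 0.24, and SNRPB, a core particle protein, at -1.47. ERI1, which trims the 3′ end, was at -0.93. Histone chaperones, which carry new histones to DNA, were lower for 12 of 27 (44.4%) and higher for 5 (median -0.13). Among them CHAF1A, of chromatin assembly factor 1, was at -2.42 ± 0.17, SUPT16H, of the FACT complex, at -1.56, and HAT1, which acetylates new H4, at 1.07 ± 0.10. MCM2 is in both the chaperone and the replication list.

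Replication-independent histone genes, which are made outside S phase as well, numbered 10, of which 3 were lower and 1 higher (median -0.13). H2AJ was at -1.17, H2AZ1 at -0.83, CENPA, the centromeric H3, at -1.13, and MACROH2A1 at 0.93. Of 30 regulators of entry into S phase, 11 were lower (36.7%) and 11 higher, beside 22.7% and 21.3% of all probe sets. The cyclin gene CCND1 was at 2.66 ± 0.11 and the inhibitor gene CDKN2A at 3.51 ± 0.26, while the transcription factor gene E2F1 was at -1.79.

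**Figure D4:**
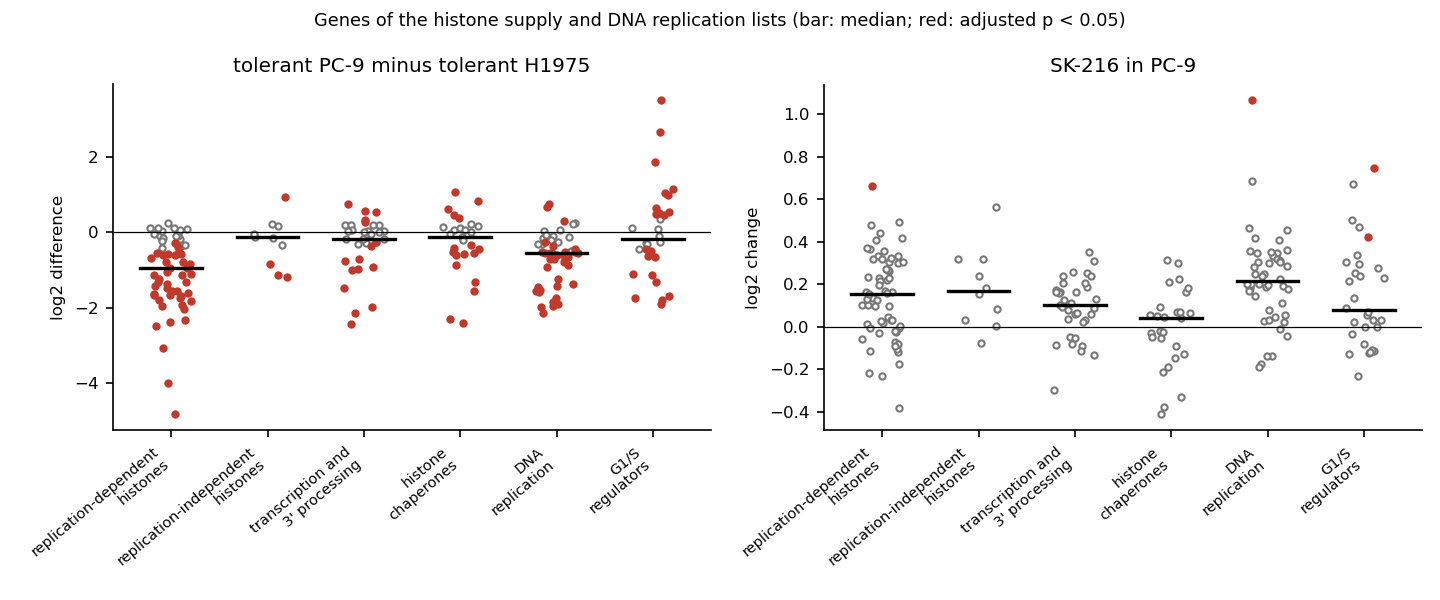
Log2 difference of each gene (y axis) in the histone genes and 5 related lists (x axis), for tolerant PC-9 minus tolerant H1975 (left) and for SK-216 in PC-9 (right); bars are medians and red points had an adjusted p below 0.05. On the left the histone (median -0.94) and DNA replication (median -0.56) genes lie mostly below 0; on the right only 4 points are red, 1 histone gene, 1 DNA replication gene and 2 regulators.

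SK-216 changed few histone genes in H1975. Of the 61, 2 were called (3.28%), 1 higher and 1 lower, where 3.80% of all probe sets were called (1.44% higher and 2.35% lower). The median change was 0.02, against 0.01 over all probe sets, and 35 of 61 changes were above 0 (51.6% of all probe sets were). At an unadjusted p below 0.05 there were 7 (4 higher, 3 lower), where 14.2% of all probe sets reached it. The arrays of both groups were separate in 1 gene that was higher and 3 that were lower (8.95% and 9.56% of all probe sets). The 95% intervals of 59 of 61 changes lay within ±1, with a median width of ±0.30.

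H2AC6 read 11.65, 11.61 and 11.51 in tolerant H1975 cells and 10.88, 11.16 and 11.21 after SK-216. All SK-216 arrays were below all tolerant arrays, and the gene fell by 0.51 on the log2 scale (-0.51 ± 0.13, adjusted p = 0.02025). That call ended without tolerant replicate 1, tolerant replicate 2 or SK-216 replicate 1 (adjusted p = 0.09214, 0.06905 and 0.1423) and without the variance trend (0.1196). H2BC1, the testis H2B, read 4.60, 4.33 and 4.57 before and 5.27, 5.28 and 5.44 after SK-216, a rise of 0.83 ± 0.19 (adjusted p = 0.01132). The groups were separate, but the signal began below and ended just above the 5.14 of the olfactory receptor probe sets. The call ended in 2 of 12 fits without 1 array, those without tolerant replicate 2 or SK-216 replicate 3 (highest adjusted p = 0.07129). H1-2 read 10.92, 10.86 and 10.68 before and 10.58, 10.44 and 10.25 after, with separate groups, and did not pass (-0.40 ± 0.15, adjusted p = 0.1625). H2AC1 had the largest fall of the histone genes, -0.58 ± 0.24, with means below 5.14 in both groups, and did not pass. H2AC25 at 0.46 ± 0.22 and H2BC6 at 0.40 ± 0.17 had the largest rises after H2BC1, neither past the test. H2BC14 at 0.06 ± 0.14 and H3C7 at 0.18 ± 0.17, the genes that separated the lines most, were not called. Of the 6 genes taken as known for polyadenylated mRNA, 5 had changes below 0 (median -0.19), as did 21 of the other 55 genes (median 0.03).

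Calls in the related lists were few in H1975. In the replication-independent histones H2AZ2, an H2A.Z variant gene, fell by 0.33 on the log2 scale (-0.33 ± 0.09, adjusted p = 0.03496), a call lost in 4 of 12 fits without 1 H1975 array (highest adjusted p = 0.172). In limma 0 genes passed in the lists of transcription and processing, chaperones and DNA replication (2, 4 and 4 at an unadjusted p below 0.05). Of all probe sets in H1975, 3.80% were called and 14.2% had such a p. SLBP changed by 0.34 ± 0.19 and NPAT by 0.09 ± 0.18. Among regulators of S phase entry, CCND1 rose from 11.84, 12.08 and 11.69 to 12.62, 12.64 and 12.73 (0.79 ± 0.11), E2F7 rose by 0.89 ± 0.17 and E2F8 fell by 0.64 (-0.64 ± 0.14). E2F7 and E2F8 are known as repressors of genes of the cell cycle.

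In PC-9 cells 1 histone gene was called after SK-216 (1.64%), where 0.443% of all probe sets were called (0.373% higher and 0.0699% lower). The other changes were small and leaned upward: 45 of 61 were above 0 (49.5% of all probe sets were), with a median of 0.15 against 0.00 over all probe sets. At an unadjusted p below 0.05 there were 15, all higher, where 10.9% of all probe sets reached it in either direction. In 13 genes the SK-216 arrays lay above all tolerant arrays and in 1 below (8.21% and 6.80% of all probe sets). Family medians were 0.09 for H1, 0.17 for H2A, 0.20 for H2B, 0.15 for H3 and -0.01 for H4. The 6 genes taken as known for polyadenylated mRNA were all above 0 (median 0.13), as were 39 of the other 55 (median 0.15). All 61 of the 95% intervals lay within ±1. Histone probe sets can share signal, so this upward lean is a description and was given no test.

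H4C15 read 9.65, 9.75 and 9.51 in tolerant PC-9 cells and 10.42, 10.52 and 9.96 after SK-216. The groups were separate and the rise was 0.66 ± 0.14 (adjusted p = 0.02845). The call was lost without tolerant replicate 1 or 3 (adjusted p = 0.07141 and 0.1421), without SK-216 replicate 1 or 2 (0.148 and 0.2301), and in 7 of 23 alternatives in all. H4C14, with the same upstream sequence, read 9.73, 9.97 and 9.96 before and 10.23, 10.67 and 10.20 after, separate as well, and did not pass (0.48 ± 0.13, adjusted p = 0.1326). After SK-216 both were still below their signals in H1975, which ran from 11.89 to 12.33 for H4C15 and from 12.03 to 12.35 for H4C14. The tolerant PC-9 arrays enter both this contrast and the one between the lines, so these values are not independent of each other. H2BC7 at 0.44 ± 0.17, H1-3 at 0.42 ± 0.14 and H3C1 at 0.41 ± 0.16 were among the next largest and did not pass. H2BC26 had a fitted value of 0.49 ± 0.22, but its means of 4.57 and 5.06 were below 5.14 in both PC-9 groups. The lowest values were H1-6 at -0.38 ± 0.23, with means below 5.14 in both groups, H2AC15 at -0.23 ± 0.20 and H4C16 at -0.22 ± 0.23, none called. H2BC14 stayed at -0.01 ± 0.14 and H3C7 at 0.00 ± 0.17.

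DNA replication genes leaned the same way in PC-9: 42 of 48 changes were above 0 (median 0.21), where 49.5% of all probe sets were. At an unadjusted p below 0.05 there were 15, all higher, where 10.9% of all probe sets reached it in either direction. Where 0.443% of all probe sets were called, 1 of the 48 was. It was RPA2, a subunit of the single-strand binding protein RPA, which read 6.59, 7.14 and 6.31 before and 7.55, 7.92 and 7.77 after SK-216 (1.07 ± 0.20, adjusted p = 0.01362). The groups were separate, and the call was lost in 4 of 12 fits without 1 array (highest adjusted p = 0.1115). CDKN1A, the inhibitor p21, rose by 0.75 ± 0.16 (adjusted p = 0.0369) and CCNA2 by 0.42 ± 0.09 (adjusted p = 0.03833), calls lost in 5 and 7 of those 12 fits (highest adjusted p = 0.157 and 0.1882). SLBP changed by 0.35 ± 0.19 and NPAT by 0.02 ± 0.18. In the lists of transcription and processing, of chaperones and of replication-independent histones 0 genes passed by limma (2, 2 and 2 at an unadjusted p below 0.05). Of all probe sets in PC-9, 10.9% had such a p. MKI67 was at -0.04 ± 0.15.

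**Figure D5:**
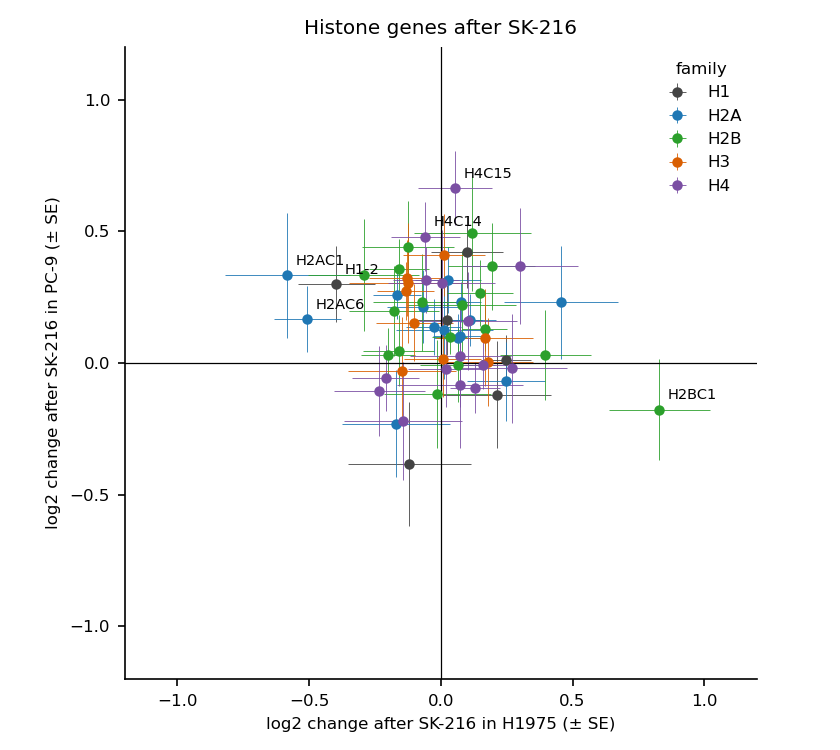
Log2 change of each histone gene after SK-216 in H1975 (x axis) and in PC-9 (y axis), ± standard error, coloured by family. Most points lie within 0.5 of 0 on both axes and 45 of 61 lie above 0 on the y axis; H2BC1 (0.83 in H1975) and H4C15 (0.66 in PC-9) stand out.

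The change in PC-9 was tested against the change in H1975 as an interaction. Of the 61 genes 0 differed by limma (13 at an unadjusted p below 0.05, 12 higher in PC-9), where 1.42% of all probe sets were called and 12.7% had such a p. The median difference of changes, PC-9 minus H1975, was 0.13, and 41 of 61 were above 0 (49.2% of all probe sets were). H2AC6 at 0.67 ± 0.18 (adjusted p = 0.06007), H2BC1 at -1.01 ± 0.27 (adjusted p = 0.06483), H1-2 at 0.70 ± 0.21 (adjusted p = 0.0981), H4C15 at 0.61 ± 0.20 (adjusted p = 0.141) and H2AC1 at 0.92 ± 0.33 (adjusted p = 0.2152) had the largest values or were called in 1 line. The 95% interval, not adjusted for the number of genes, ran from 0.31 to 1.04 for H2AC6 and from 0.27 to 1.12 for H1-2. Without PC-9 SK-216 replicate 3, H2AC6 and H4C15 were called, both higher in PC-9. H2BC6 at -0.37 and H1-1 at -0.33 were the lowest after H2BC1. A call in 1 line and none in the other is therefore not shown to be a difference between lines for these genes.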

How the data were processed

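The authors deposited 1 log2 signal per probe set and array for 21448 probe sets and 12 arrays in 4 groups of 3, and these log2 values were used with no further normalization. Per the labels' protocols, 250 ng of total RNA was labelled with a whole-transcript kit. Per the submitters' processing notes the software was Transcriptome Analysis Console, with version, summarisation and normalization not given there. Of the probe sets, 17709 carried a gene symbol in the platform annotation and 3739 were unnamed here; all 61 histone symbols equal those of RefSeq.

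All 12 arrays entered 1 limma 3.58.1 fit in R 4.3.3, with a mean per group and eBayes with a variance trend (8 residual degrees of freedom, prior degrees of freedom 15.0 in the median). Contrasts were SK-216 in H1975, SK-216 in PC-9, their difference, and tolerant PC-9 against tolerant H1975. Tests were two-sided, p-values were Benjamini-Hochberg adjusted over the whole table, and calls needed an adjusted p below 0.05. Errors after ± are standard errors of the fit. Full statistics were given for up to 12 called members per contrast, the 3 largest changes each way, the brightest probe set per family, SLBP, NPAT and up to 3 called genes per list for SK-216; other members were named freely. The members, lists and this rule were chosen with earlier results of these data known, and no list is independent evidence. Promoter sequences are RefSeq's (GRCh38.p14), and no other coordinates are printed, since the sources name no build for the array. The fit was tested on simulated data. Alternatives were no trend, robust fits, each line alone, the replicate number as a block, a filter on dim probe sets, other normalizations, weights, a threshold of 0.01 and leaving out each array. The contrast between lines in SK-216 cells and the filter at olfactory receptor level were added after seeing the data. Figures used matplotlib 3.10.9.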

Additional observations from a re-analysis of the deposited data

Results flagged for a closer look

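By the interaction test of the SK-216 response, 0 of the 61 histone genes (13 at an unadjusted p below 0.05 in limma) and 4 genes of the related lists were called. Of all probe sets 1.42% were called and 12.7% had such a p. CENPA, the centromeric H3, changed by -0.38 in H1975 and by 0.56 in PC-9, neither past the test, and the difference of changes was 0.94 ± 0.23 (adjusted p = 0.03334). CCND1 changed by 0.79 in H1975 and by 0.03 in PC-9, a difference of -0.76 ± 0.16 (adjusted p = 0.01001). E2F8 changed by -0.64 and 0.34, a difference of 0.98 ± 0.20 (adjusted p = 0.00946). E2F7 changed by 0.89 and -0.08, a difference of -0.97 ± 0.24 (adjusted p = 0.03796). Without 1 array the call was lost in 9 of 12 fits for CENPA (highest adjusted p = 0.1043) and in 9 of 12 for E2F7 (highest 0.1074). These genes were named because of these tests.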

How the results depend on the processing

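The 43 histone genes called in tolerant PC-9 against H1975 cells stayed between 40 and 46 in every alternative run, and 39 of the 43 calls were kept in all 21 planned fits at this threshold. H1-4, H3C2 and H3C3 were lost in some, and H2AC1, called in 20, was left out of the fit without the dimmest 30% of probe sets. The 46 is the count in the SK-216 arrays, 43 lower and 3 higher. With quantile normalization 42 were lower and 1 higher (H4C5). Without 1 array the count was 40 to 44 and the median -1.0 to -0.83. The 2 calls for SK-216 in H1975 became 1 without the variance trend, 1 without probe sets at olfactory receptor level (added after seeing the data), 0 at an adjusted p below 0.01, and 0 to 2 without 1 array. The 1 call in PC-9 became 0 without the trend, with each line fitted alone, with quantile normalization and at an adjusted p below 0.01, and 0 to 1 without 1 array. The 0 calls for the difference became 1 without the trend (H2BC1), 2 without the dimmest 30% of probe sets (H2BC1 and H2AC6), 1 without probe sets at olfactory receptor level, and 0 to 2 without 1 array. Without 1 array, 0 in H1975 was reached without tolerant replicate 2, 0 in PC-9 without tolerant replicate 1 or 3 or SK-216 replicate 1 or 2, and 2 for the difference without PC-9 SK-216 replicate 3. Without 1 array the medians were -0.04 to 0.09 in H1975, 0.10 to 0.17 in PC-9 and 0.015 to 0.20 for the difference (lowest without H1975 SK-216 replicate 2). With the replicate number as a block the counts were 2, 1, 0 and 43 over both lines, unchanged; arrays of the same number did not deviate together over all probe sets, within lines or between lines in tolerant or SK-216 arrays (r between -0.091 and 0.029), so the numbers were not taken to pair the samples. The mean histone deviations, however, had the same sign in both lines for each number, in tolerant and in SK-216 arrays. They were 0.0242 and 0.029, 0.0909 and 0.0097, and -0.1151 and -0.0387 in tolerant H1975 and PC-9 arrays. In the SK-216 arrays they were 0.0562 and 0.0577, -0.120 and -0.0642, and 0.0641 and 0.0065. A pattern by number in the histone genes was not tested.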
